A study of Mus musculus with 6 samples.

Results

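The 7 genes described here are Vgf, Neurod1, Nes, Ano3, Eef1a2, Chst1 and Mcam, a set of neuronal, neuroendocrine and neural progenitor genes whose counts were higher in mouse epiblast-like cells without Cables2. They were taken by symbol from a deposited table of 49585 genes, in which each of the 7 symbols was found. The members were selected on their raw counts in the 6 libraries, for being higher without Cables2, so their values in that contrast are a description and carry no test here.

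RNA was sequenced from 3 libraries of Cables2-/- cells (hereafter KO) and 3 libraries of wild-type cells (WT). All 6 came from epiblast-like cells of the C57BL/6 strain made from embryonic stem cells, which model the epiblast just after implantation, and were taken 2 days after induction. Before induction the stem cells of both groups were kept in LIF with 3 μM CHIR99021 and 1 μM PD0325901, which inhibit GSK3 and MEK. Induction was on fibronectin in medium with activin A at 20 ng/mL, bFGF at 12 ng/mL and KSR at 1%. The labels name the genotype only. They do not name the allele or the number of stem cell lines behind a group, or say whether the 3 libraries of a group are separate cultures, so the spread behind each p-value may be technical. Libraries are called by the numbers in the column names, KO 04, 05 and 06 and WT 01, 02 and 03.

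The KO libraries held 5134417, 5206717 and 4442618 counts and the WT libraries 4848967, 4477305 and 4234788. A count of 3, used as a floor, equals 0.568 to 0.714 CPM (counts scaled to library size), which covers counting error only. Cables2 itself, whose product binds cyclin-dependent kinases, had 6, 11 and 4 counts in KO libraries 04, 05 and 06, against 114, 111 and 121 in WT libraries 01, 02 and 03, so each library carried the level of its label. All 10 epiblast marker genes in the list used here averaged at least 1 CPM. Their summed level ran from 6640 to 6824 CPM in KO libraries and from 6275 to 6523 CPM in WT libraries. Among them Fgf5 (log2 fold change 1.17 ± 0.14, SE) and Pou3f1 (0.88 ± 0.05) rose in KO, with edgeR adjusted p of 5.24e-10 and 1.56e-23. Both are known markers of the state after implantation. Of the 10, 3 rose and 2 fell, the others being Tdgf1 (0.36 ± 0.05), Lin28a (-0.20 ± 0.05) and Dnmt3a (-0.17 ± 0.04).

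Neural genes are largely silent in pluripotent cells. The REST repressor, bound to its DNA element together with corepressors, holds down many genes of neurons and secretory cells in non-neural tissue, and proneural basic helix-loop-helix factors such as Neurod1 bind E-boxes to switch neuronal genes on. Vgf is a classic target of growth factor and cyclic AMP signalling through CREB, which binds the cyclic AMP response element (CRE). Nes and Mcam are also made outside mature neurons, in neural progenitors and in vessel walls.

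Promoter sequences bear on which of these motifs stand before the members. RefSeq promoter windows (build GRCm38.p6) were matched by symbol for 6 of the 7 members, in 7 windows because Ano3 has 2. No window was found for Vgf, so no motif, the CRE included, was searched before it. Each motif was searched on both strands in the 250 bases before the start, and in the same stretch of all 32851 promoters. The part of the window upstream of any annotated exon is shown for Neurod1 and Nes, the transcription factor and the filament gene of the set, with each GC box (GGGCGG or its reverse complement) in capitals. For Mcam 28 bases around the single CRE are shown with TGACGTCA in capitals. The Neurod1 stretch is chr2:79456786-79456886 on the minus strand, the Nes stretch chr3:87970843-87971077 on the plus strand and the Mcam stretch chr9:44134619-44134646 on the plus strand.
Neurod1: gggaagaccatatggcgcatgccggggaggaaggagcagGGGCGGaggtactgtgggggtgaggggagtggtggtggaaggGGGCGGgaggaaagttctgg
Nes: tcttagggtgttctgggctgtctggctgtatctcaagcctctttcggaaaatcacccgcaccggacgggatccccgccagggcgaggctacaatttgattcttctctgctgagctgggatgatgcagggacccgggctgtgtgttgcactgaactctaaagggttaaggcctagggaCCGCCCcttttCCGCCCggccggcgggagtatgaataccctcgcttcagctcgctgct
Mcam: cccgccccccTGACGTCAgcccccgaca

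The GC box stood before 4 of the 6 members (Neurod1, Eef1a2, Nes and Mcam) and in 32.7% of all promoters. The full CRE stood before Mcam, with its first base 29 bases upstream of the RefSeq start, and in 1.55% of all promoters. Some annotated Mcam transcripts start farther upstream and carry this stretch in their first exon. The shorter CRE core TGACG, which every full CRE contains, stood before Ano3 and Mcam and in 17.8% of all promoters. The E-boxes CAGCTG and CACGTG each stood before Ano3, in 1 of its 2 windows, and in 13.0% and 6.02% of all promoters, while CAGATG (14.4%) stood before none of the 6. TATAAA stood before Ano3 and in 12.4% of all promoters, and CCAAT, found in 33.8%, before none. Neither of the 2 parts of the REST element searched, TTCAGCACC (0.301% of all promoters) and GGACAGCGC (0.304%), was in a member window. No motif was therefore shared by all 6, and a match describes letters only. The window was richest in G and C for Mcam (73.6%) and Neurod1 (67.6%), against a median of 52.4% over all promoters.

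Vgf (ENSMUSG00000037428.14, chromosome 5, 137026392 to 137033351, plus strand, mm10) encodes a secreted precursor that neurons and endocrine cells cut into neuropeptides. It had 187, 183 and 192 counts in KO libraries, against 45, 38 and 38 in WT libraries. The groups lay far apart, and the lowest KO library was 3.68 times the highest WT library in CPM. Its level averaged 38.1 ± 4.59 CPM in KO and 8.97 ± 0.471 CPM in WT (SD, n = 3 each), a fitted log2 fold change of 2.08 ± 0.16 (SE), the largest of the 7. Per kilobase of exon it averaged 12.8 ± 1.55 CPM in KO and 3.02 ± 0.158 CPM in WT, behind Mcam and Nes in both groups. With each library left out in turn the log2 fold change stayed between 1.98 and 2.14.

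Neurod1 (ENSMUSG00000034701.9, chromosome 2, 79452521 to 79456751, minus strand) encodes the proneural transcription factor that drives neuronal and endocrine differentiation. It had 32, 29 and 21 counts in KO libraries, against 3, 8 and 8 in WT libraries. The WT counts stood close to the floor, and that of WT 01 was on it, while all KO libraries were above every WT library. Its level averaged 5.48 ± 0.738 CPM in KO and 1.44 ± 0.705 CPM in WT, a fitted log2 fold change of 1.94 ± 0.40. The value was 1.57 without WT 01 and 2.19 without WT 03. Per kilobase of exon it averaged 2.01 ± 0.270 CPM in KO and 0.527 ± 0.258 CPM in WT.

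Neurod1 lies wholly within the annotated span of Cerkl, on the same strand, with 201 exon bases in common, and 65.4% of it lies within that of Gm26755 on the opposite strand. Its counts are therefore uncertain, since the rule for reads in overlapping genes is not stated. The RPKM columns of the deposited table, whose values are not used here, imply more reads for Neurod1 than its counts do in every library. They do so also for many other genes, mostly within the span of another gene, Sox2 and Tubb3 among them. The level of Neurod1, its closeness to the floor in WT and its fold change thus hold for the count columns alone. Levels, filtering and list counts of such other genes carry the same limit. Of 414 protein-coding genes that lie wholly within the span of another gene on the same strand, 23.2% passed the filter on low counts, against 53.0% of 20922 other protein-coding genes. Sox2, which pluripotent cells depend on, lies within the span of Sox2ot and was listed with 0 to 2 counts in every library. The part of gene overlap in these levels was not tested. None of the other 6 members lies within the span of another gene, although Ano3 has 61 and Mcam 17 exon bases under a gene of the opposite strand.

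Nes (ENSMUSG00000004891.16, chromosome 3, 87971078 to 87980451, plus strand) encodes nestin, the intermediate filament protein of neural progenitors. It had 608, 517 and 507 counts in KO libraries, against 343, 358 and 376 in WT libraries. The groups did not overlap in CPM, but the gap was narrow, since the lowest KO library was 1.09 times the highest WT library. Its level averaged 110 ± 10.7 CPM in KO and 80.3 ± 8.91 CPM in WT, a fitted log2 fold change of 0.46 ± 0.08, the smallest of the 7. Per kilobase of exon it was the second most abundant in KO, at 17.2 ± 1.67 CPM, and in WT, at 12.5 ± 1.39 CPM.

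Ano3 (ENSMUSG00000074968.11, chromosome 2, 110655201 to 110950923, minus strand) encodes a membrane protein of the anoctamin family found mainly in neurons. It had 71, 110 and 81 counts in KO libraries, against 16, 16 and 27 in WT libraries. All KO libraries were above all WT libraries, although each group spread widely. Its level averaged 17.6 ± 3.56 CPM in KO and 4.44 ± 1.72 CPM in WT, a fitted log2 fold change of 2.00 ± 0.23, which was 1.82 without WT 01 and 2.34 without WT 03. In CPM per kilobase of exon it averaged 2.44 ± 0.494 CPM in KO and 0.615 ± 0.238 CPM in WT.

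Mcam (ENSMUSG00000032135.15, chromosome 9, 44134469 to 44142727, plus strand) encodes the cell adhesion molecule CD146 of the immunoglobulin superfamily, known from endothelium, pericytes and neural crest derivatives. It had 610, 717 and 609 counts in KO libraries, against 314, 251 and 245 in WT libraries. The groups were well apart, with the lowest KO library at 1.80 times the highest WT library in CPM. Its level averaged 130 ± 10.5 CPM in KO and 59.9 ± 5.04 CPM in WT, a fitted log2 fold change of 1.12 ± 0.08. Per kilobase of exon, the scale on which levels of different genes can be compared, it was the most abundant of the 7 in both groups, at 38.9 ± 3.13 CPM in KO and 17.9 ± 1.5 CPM in WT.

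Chst1 (ENSMUSG00000027221.5, chromosome 2, 92599707 to 92615250, plus strand) encodes the sulfotransferase that adds sulfate to the galactose of keratan sulfate. It had 52, 58 and 35 counts in KO libraries, against 14, 13 and 11 in WT libraries. The WT libraries were close together and all KO libraries were above them. Its level averaged 9.65 ± 1.59 CPM in KO and 2.81 ± 0.170 CPM in WT, a fitted log2 fold change of 1.78 ± 0.29. This was 3.60 ± 0.593 CPM in KO and 1.05 ± 0.0634 CPM in WT per kilobase of exon.

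Eef1a2 (ENSMUSG00000016349.10, chromosome 2, 181147653 to 181157014, minus strand) encodes the form of translation elongation factor eEF1A that replaces the ubiquitous form, Eef1a1, in mature neurons and muscle. It had 27, 25 and 20 counts in KO libraries, against 22, 13 and 6 in WT libraries. KO 06 stood at 4.51 CPM, below the 4.59 CPM of WT 01, so the groups overlapped. Its level averaged 4.83 ± 0.375 CPM in KO and 2.97 ± 1.59 CPM in WT, a fitted log2 fold change of 0.67 ± 0.35. The value was 0.36 without WT 03 and 1.14 without WT 01, so that its size rested on which WT library was counted. Per kilobase of exon it averaged 2.32 ± 0.180 CPM in KO and 1.43 ± 0.761 CPM in WT.

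Because the paralog Eef1a1 is far more abundant, the sequences were compared. The coding sequences of Eef1a2 (1392 bases) and Eef1a1 (1389 bases) in GENCODE M21 are 79.8% identical, the longest identical run is 23 bases, and no stretch of the read length, 36 bases, is found in both. Bases 490 to 549, counted from the start codon, show this, with the 12 mismatches in capitals.
Eef1a2: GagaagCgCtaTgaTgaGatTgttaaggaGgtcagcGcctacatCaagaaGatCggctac
Eef1a1: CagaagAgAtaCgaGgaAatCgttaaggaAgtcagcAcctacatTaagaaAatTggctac
Eef1a1 had 40304, 41135 and 34154 counts in KO libraries, against 35609, 35263 and 32742 in WT libraries, and its log2 fold change was 0.01 ± 0.04 (edgeR adjusted p = 0.844). Over their whole transcripts, Vgf, Nes, Ano3, Eef1a2 and Mcam shared no 36-base stretch with another gene on the same strand, Chst1 shared 0.305% of its stretches and Neurod1 6.20%, these with Cerkl. Eef1a1 itself shared 47.5% of its stretches with other genes on the same strand, most often with Gm13456, so its counts are less certain. Only exact matches were searched. The aligner is not known, and one that allows mismatches could still misplace reads between similar genes, which was not tested.

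**Figure D1:**
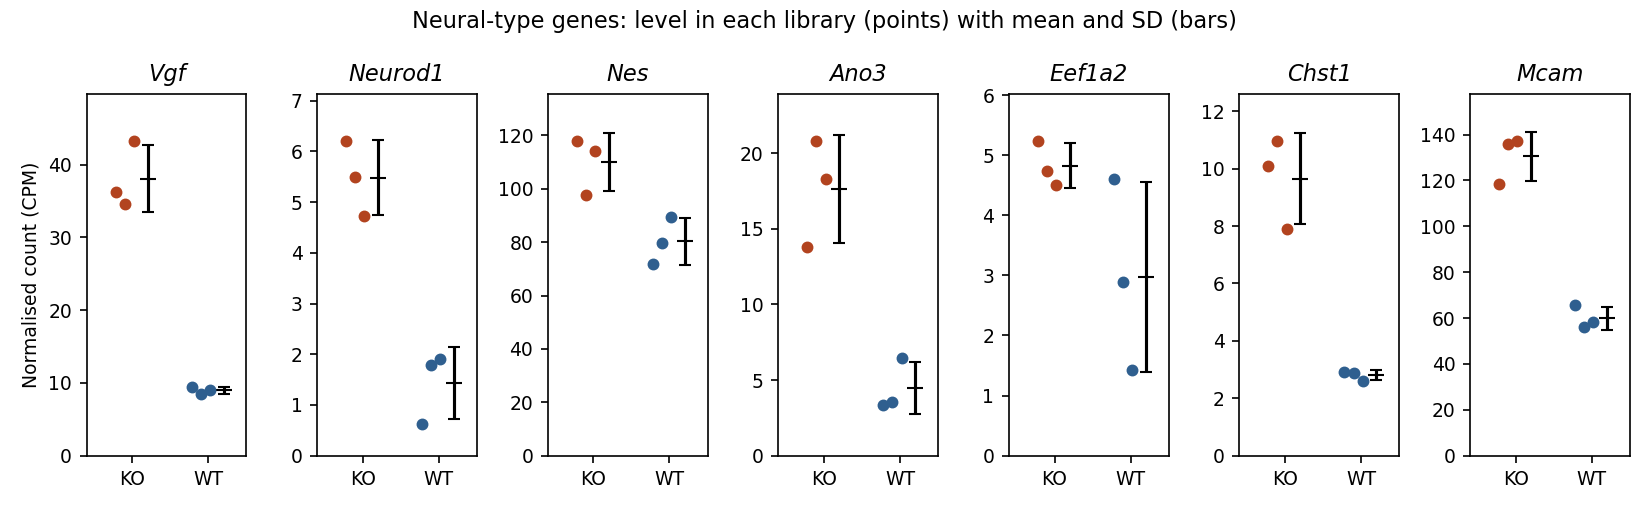
Normalised count (CPM) of each of the 7 genes in KO (red, left) and WT (blue, right) libraries, as points, with the mean and SD as bars (n = 3 each); each panel has its own axis from 0. KO points lie above all WT points in every panel except that of Eef1a2, where KO 06 at 4.51 CPM is below WT 01 at 4.59 CPM.

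All 7 members passed the filter on low counts. Of these, 6 (not Eef1a2) were called higher in KO at an edgeR adjusted p under 0.05, as were 8.13% of the 11594 genes tested, and the KO libraries were above all WT libraries in CPM for the same 6, as for 15.7% of the genes tested. A fitted rise of at least 2-fold was seen for 5, the exceptions being Nes and Eef1a2, and for 1.03% of the genes tested. Since the members were chosen for their higher counts, nothing is read from these shares. The median log2 fold change was 1.78 over the members and 0.01 over all genes tested.

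**Figure D2:**
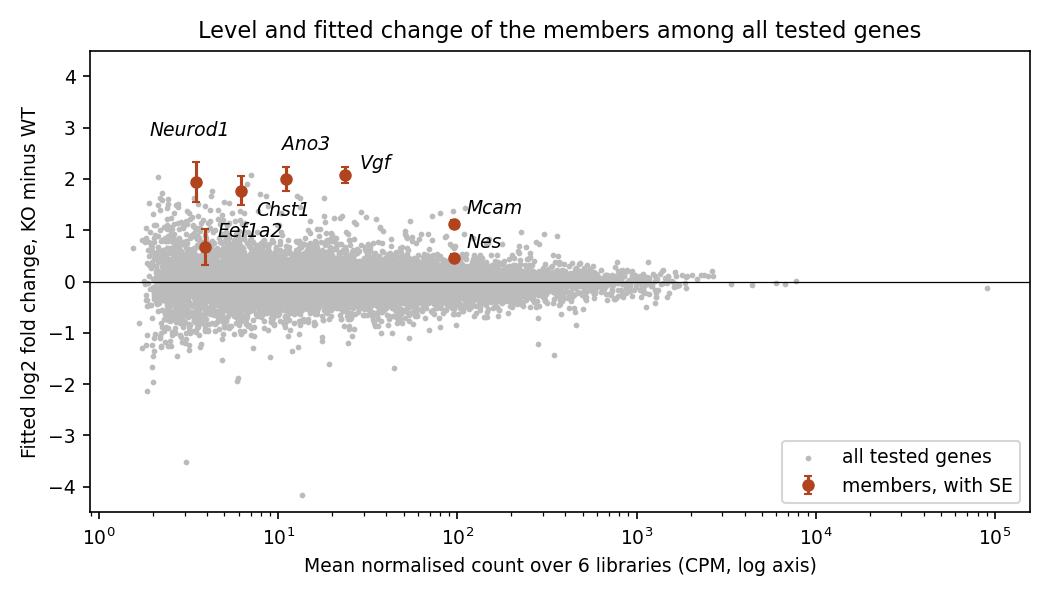
Mean level (CPM, log axis) and fitted log2 fold change (KO minus WT) of the genes tested (grey) and of the 7 members (red, with SE). Nes and Mcam lie far to the right of the other 5 members, and Eef1a2 and Neurod1, with the fewest counts, have the widest errors.

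The members did not rank the libraries alike within a group. KO 04 was highest of its group for 3 members, KO 05 for 2 and KO 06 for 2. In WT, library 01 was highest for 4 members, library 03 for 3 and library 02 for 0. Over the 6 libraries, Pearson's r of log2 CPM between members ran from 0.33 (Nes and Eef1a2) to 0.99 (Vgf and Mcam) over 21 pairs, with a median of 0.88. These values follow the difference between groups by which the members were picked and are given as a description.

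For each member the most alike genes were taken as those with the highest r over the same 6 libraries among 8598 genes averaging at least 10 CPM. They were Mdm2 (r = 0.999) and Jrk for Vgf, Celf5 and Zfp385a for Neurod1, Ebna1bp2 and Alyref for Nes, and Jmjd1c and Trp53i11 for Ano3. For Eef1a2 they were Gnao1 and Zbtb34, for Chst1 Yeats2 and Tap1, and for Mcam Cyyr1 and Arfgef1. Each r was at least 0.990, also for Eef1a2, whose groups overlapped. With 6 libraries and 8598 genes searched, values this high can arise for unrelated genes, so the pairs are a description only. The sizes of change differed within these pairs: Mdm2 averaged 192 CPM in KO and 107 CPM in WT (log2 fold change 0.84), against 2.08 for Vgf. Jmjd1c had a log2 fold change of 0.11, against 2.00 for Ano3.

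The other genes of the same kinds were then counted, to see whether neural-type genes in general were higher. In 4 lists of neural genes (progenitor, proneural, secretory granule, and cytoskeleton and synapse genes), 65 of 136 were tested, and 6 rose (9.23%) and 4 fell (6.15%), against 8.13% and 9.13% of all genes tested. Their median log2 fold change was -0.04. DESeq2 called 5 of them, against 10 with edgeR. Without WT 01 6 were called higher and 1 lower, and without WT 02 4 higher and 3 lower. With 3 lists of regulators added (the REST complex, the CREB pathway, and Id and E proteins), many of which are made in most cell types, 106 were tested, and 10 rose (9.43%) and 10 fell (9.43%). In that larger set DESeq2 called 13, against 20 with edgeR. Without WT 01 10 of the larger set were called higher and 3 lower, and without WT 02 6 higher and 9 lower. The RNA comes from whole cultures, so fewer cells of a type and less RNA per cell cannot be told apart.

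Among genes of neural progenitors, the company of Nes, 2 rose and 2 fell of 21 tested (median -0.15). Notch1, the receptor that keeps progenitors undifferentiated, rose by 0.33 ± 0.08 on the log2 scale (edgeR adjusted p = 0.00096), and Sox3, a SoxB1 transcription factor, rose by 0.33 ± 0.07 (adjusted p = 0.00037). Meis2, a homeobox gene, fell with a log2 fold change of -1.45 ± 0.43 (adjusted p = 0.0111) at 1.44 ± 0.961 CPM in KO and 4.03 ± 1.46 CPM in WT. Zfp521, a zinc finger gene of early neural differentiation, had a value of -0.85 ± 0.31 (adjusted p = 0.0472). DESeq2 called 2 genes of this list and gave no adjusted p for Meis2. Leaving out 1 library ended the call for Meis2 (WT 01, WT 02, KO 05 or KO 06, adjusted p up to 0.0981) and for Zfp521 (any library other than WT 01, up to 0.247), and that of Zfp521 was also lost with DESeq2 (adjusted p = 0.143), with no low-count filter and with both other scalings. Vim, the filament protein found with nestin in progenitors, had a value of 0.10 ± 0.08 (adjusted p = 0.464) and did not pass, nor did the eye and forebrain gene Pax6 at -0.55 ± 0.44 (adjusted p = 0.434).

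Proneural and early neuronal transcription factors, the class of Neurod1, were mostly near or below the floor. Of 30 listed, 5 were tested and 0 were called by edgeR, 0 by DESeq2 and 0 reached an unadjusted p under 0.05. Neurod4, a close relative of Neurod1, had 0, 2 and 0 counts in KO libraries, against 0, 0 and 0 in WT libraries. Neurog2, a proneural factor known to act before Neurod1, had 2, 2 and 1 counts in KO and 0, 2 and 1 in WT. Neither passed the filter, and in these counts a difference between the groups was not detectable at this depth. Of the Id, Hes and E protein genes, whose products inhibit or pair with such factors, 1 of 6 tested was called, the E protein gene Tcf4, lower with a log2 fold change of -0.39 ± 0.11 (edgeR adjusted p = 0.00546). Without WT 01 or KO 06 this call was lost (adjusted p up to 0.075).

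Secretory granule and neuropeptide genes, the company of Vgf, gave 0 calls of 9 tested by edgeR and 0 by DESeq2, and 0 reached an unadjusted p under 0.05. Chga, which encodes the granule protein chromogranin A, stood at 11.5 ± 0.719 CPM in KO and 8.94 ± 1.45 CPM in WT (log2 fold change 0.37 ± 0.21, edgeR adjusted p = 0.242). Scg5, a chaperone of prohormone cleavage, had 2, 4 and 2 counts in KO libraries, against 1, 2 and 1 in WT libraries, and did not pass the filter. Of neurotrophin receptor and CREB pathway genes 2 rose and 2 fell of 17 tested. Sort1, a sorting receptor for neurotrophins, rose by 0.34 ± 0.08 and Crebbp, the CREB coactivator, by 0.20 ± 0.06, with edgeR adjusted p of 0.00107 and 0.00495. Adcy1, an adenylyl cyclase gene, fell with a value of -0.52 ± 0.18 (adjusted p = 0.0273), and Prkaca, a catalytic subunit of protein kinase A, with -0.25 ± 0.08 (adjusted p = 0.0165). DESeq2 called 2 of the 17. Adcy1 lost its call without WT 01, WT 03 or KO 04 (adjusted p up to 0.229), Prkaca without WT 01, KO 05 or KO 06 (0.126) and Crebbp without WT 02 or KO 04 (0.0773). Adcy1 and Prkaca also lost theirs with DESeq2 (adjusted p = 0.111 and 0.0777).

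Of the REST repressor complex 2 rose and 3 fell of 19 tested. Rest itself averaged 581 ± 3.14 CPM in KO and 521 ± 28.2 CPM in WT, a log2 fold change of 0.16 ± 0.05 (edgeR adjusted p = 0.0119), and the call was lost without WT 02 (adjusted p = 0.148). The corepressor gene Rcor2 rose by 0.24 ± 0.06 (adjusted p = 0.00202). The histone methyltransferase gene Ehmt2 fell with a log2 fold change of -0.34 ± 0.05 (adjusted p = 9.17e-07), Phf21a with -0.36 ± 0.09 and the phosphatase gene Ctdsp2 with -0.24 ± 0.07 (adjusted p = 0.0024 and 0.00406). Ctdsp2 lost its call without WT 01 (adjusted p = 0.1).

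Neuronal cytoskeleton, synapse and RNA-binding genes gave 4 higher and 2 lower of 30 tested. Gap43, a growth cone gene, averaged 4.76 ± 1.05 CPM in KO and 2.32 ± 0.563 CPM in WT (log2 fold change 1.03 ± 0.37, edgeR adjusted p = 0.0406), and its call was lost when any library other than KO 05 was left out (adjusted p up to 0.188), with no low-count filter and with DESeq2 (0.134). The neurofilament genes Nefl (0.62 ± 0.19, adjusted p = 0.0179) and Nefh (0.40 ± 0.10, adjusted p = 0.0013) rose. Stmn2, a microtubule regulator of neurons, fell with -0.51 ± 0.14 (adjusted p = 0.00495) and Unc13a, a synaptic vesicle priming gene, with -0.48 ± 0.16 (adjusted p = 0.0243). Without 1 library calls were lost for Nefl (WT 02, WT 03 or KO 06, adjusted p up to 0.203), Stmn2 (WT 01 or KO 04, up to 0.0591) and Unc13a (WT 01, WT 02 or KO 05, up to 0.149), and DESeq2 called 3 genes of this list, without Nefl (adjusted p = 0.0994) and Unc13a (0.0923). Tubb3, the neuronal tubulin, lies within the span of Gm20388 on the same strand and averaged 18.4 ± 2.54 CPM in KO and 21.2 ± 2.33 CPM in WT (log2 fold change -0.20 ± 0.16, adjusted p = 0.417).

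The relatives of the other members did not share 1 direction. In the families of Nes, Ano3, Eef1a2, Chst1 and Mcam together, 6 rose (12.5%) and 3 fell (6.25%) of 48 tested, against 8.13% and 9.13% of all genes tested. Single families held only 4 to 13 tested genes each, and their counts are to be set against the same shares. Of intermediate filament genes other than Nes, 4 of 11 were called, all higher: Prph, Synm, Nefl and Nefh, of which Synm, which encodes a partner of nestin, had the largest change (1.45 ± 0.42, edgeR adjusted p = 0.00835). Synm averaged 4.06 ± 0.922 CPM in KO and 1.47 ± 0.364 CPM in WT, and its call was lost without KO 05 (adjusted p = 0.0794). DESeq2 called 2 of the 11 and gave no adjusted p for Synm. Of the 4 anoctamins tested beside Ano3, 2 were called, both lower, Ano8 with -0.43 ± 0.12 and Ano6 with -0.42 ± 0.10 (edgeR adjusted p = 0.00922 and 0.00119). Ano8 lost its call without WT 03 (adjusted p = 0.129).

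Of the 12 elongation factor genes tested beside Eef1a2, 0 were called by edgeR and 0 by DESeq2, and 2 had an unadjusted p under 0.05. Among carbohydrate sulfotransferase and keratan sulfate genes 2 of 13 were called, both higher: Chst15, which sulfates chondroitin chains (1.11 ± 0.40, edgeR adjusted p = 0.0414) and B3gnt7, which builds the keratan sulfate chain (0.28 ± 0.07, adjusted p = 0.00277). The Chst15 call was lost without WT 02, WT 03, KO 04 or KO 06 and with no low-count filter (adjusted p up to 0.186). DESeq2 called 1 of the 13 and gave no adjusted p for Chst15. Among partners and relatives of Mcam 1 of 8 was called, the adhesion gene Bcam, lower with -0.40 ± 0.06 (adjusted p = 3.12e-07).

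Several members are known from cell types other than neurons, so markers of these were summed. Endothelial markers, 12 in all, summed to 171 to 184 CPM in KO libraries and 129 to 145 CPM in WT libraries. Of the 6 tested, 3 rose: Tek (1.41 ± 0.33), the auxiliary TGF-β receptor gene Eng (1.18 ± 0.10) and the tight junction gene Cldn5 (0.82 ± 0.30), with edgeR adjusted p of 0.000938, 4.04e-16 and 0.0481. The call of Cldn5 was lost without WT 01, WT 02, KO 04 or KO 05 (adjusted p up to 0.167), with DESeq2 (0.153), with no low-count filter (0.0704) and with CPM of at least 1 in 3 libraries (0.050003). DESeq2 called 2 of the 6. The defining endothelial genes Cdh5, Kdr and Tie1 were under 1 CPM and Emcn was at 0 in all libraries. The 9 markers of smooth muscle and pericytes summed to 327 to 358 CPM in KO and 224 to 252 CPM in WT, and 3 of 5 tested rose: Acta2 (1.40 ± 0.46), Tagln (0.88 ± 0.18) and Notch3 (0.56 ± 0.06). Their edgeR adjusted p were 0.0262, 7.59e-05 and 2.9e-12. Acta2 lost its call without WT 01, WT 03, KO 05 or KO 06 and with no low-count filter (adjusted p up to 0.103). DESeq2 called 2 of the 5 and gave no adjusted p for Acta2, and Myh11 and Rgs5 were under 1 CPM. Of all genes tested, 8.13% were called higher. A sum can lean on a few abundant markers, so these sums do not show a rise of the markers in general. Both sums were higher in KO, as was Mcam, and their part in its level was not tested.

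The sums of neural crest markers (144 to 157 CPM in KO and 139 to 149 CPM in WT) and glial markers (123 to 143 CPM in KO and 127 to 138 CPM in WT) overlapped between the groups. In neural crest 1 gene rose, Foxd3 (0.51 ± 0.09, edgeR adjusted p = 1.2e-05), and 1 fell, Erbb3 (-0.30 ± 0.10, adjusted p = 0.0224), of 6 tested. Erbb3 lost its call without WT 01, KO 04 or KO 06 (adjusted p up to 0.194) and with DESeq2 (0.0934). The crest genes Tfap2a, Snai1, Snai2 and Pax3 were under 1 CPM and Tfap2b was at 0. Among glial markers 0 of 5 tested were called by edgeR or DESeq2, 0 had an unadjusted p under 0.05 and S100b was at 0. Fibroblast markers summed to 33.1 to 37.8 CPM in KO and 31.3 to 33.2 CPM in WT, 0 of 3 tested were called by edgeR or DESeq2 or had an unadjusted p under 0.05, and Lum, Postn and Fap were at 0. Markers of neurons summed to 120 to 124 CPM in KO and 126 to 132 CPM in WT, so this sum was lower in every KO library. Of 11 tested, 1 was called higher (Nefl) and 1 lower (Stmn2), with a median log2 fold change of -0.11. Stmn2 averaged 21.6 ± 2.58 CPM in KO and 30.5 ± 3.34 CPM in WT. Nefl averaged 17.7 ± 4.11 CPM in KO and 11.3 ± 4.48 CPM in WT. The sum leans on Stmn2, so it does not show a fall of the markers in general. The defining gene Dcx was under 1 CPM.

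**Figure D3:**
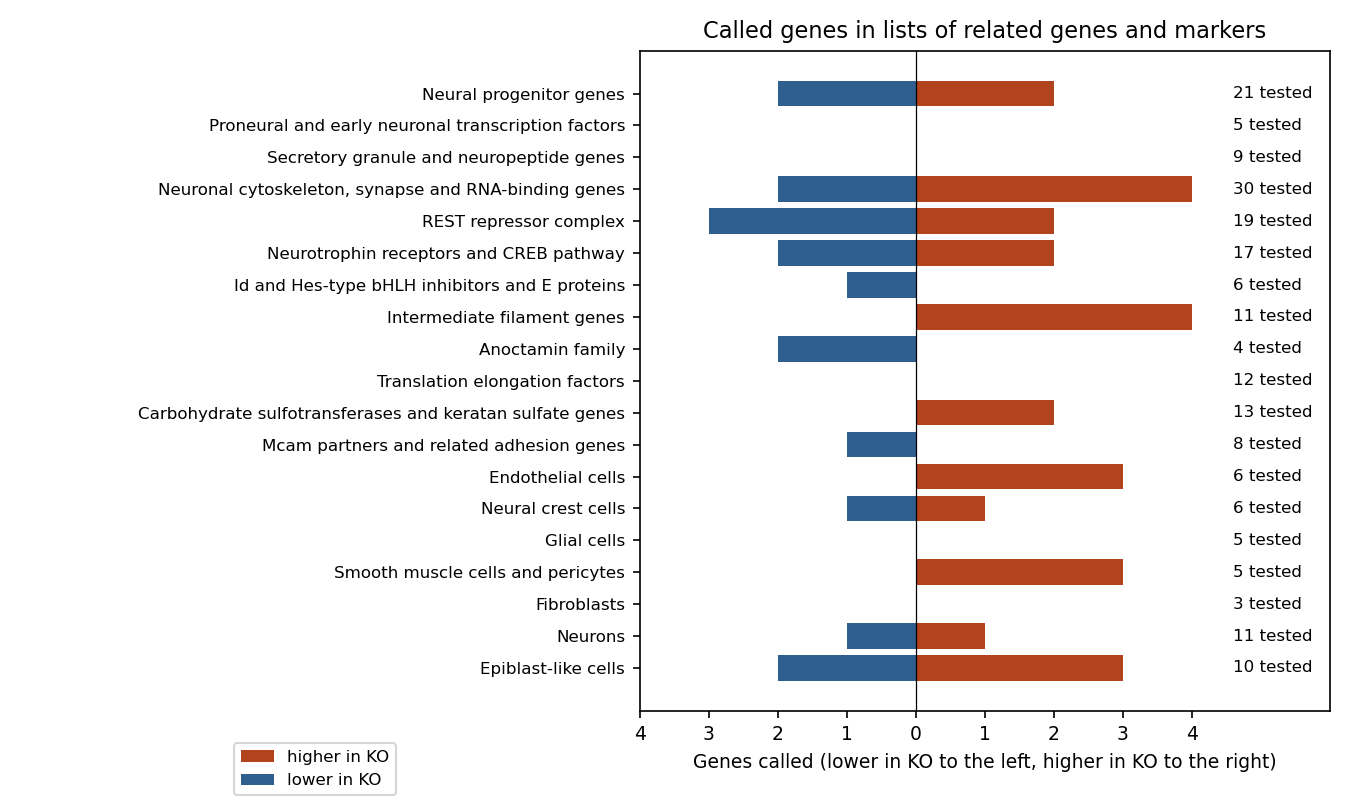
Number of genes called lower (blue, to the left) and higher (red, to the right) in KO by edgeR in each list of related genes and cell type markers, with the number tested. Most lists have calls in both directions or none, and intermediate filament genes have 4 higher and 0 lower of 11.

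The members were also compared by position. Of the 7, 4 (57.1%) are on chromosome 2 with Cables2: Neurod1, Ano3, Chst1 and Eef1a2. Chromosome 2 held 8.01% of the genes tested and 97 of the 943 genes called higher (10.3%). Only Eef1a2 is close to Cables2, at 0.874 Mb, while Ano3 is 69.3 Mb, Chst1 87.6 Mb and Neurod1 101 Mb away. Within 2 Mb of Cables2 4 genes were called higher (9.52%) and 3 lower (7.14%) of 42 tested, against 8.13% and 9.13% of all genes tested.

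Genes called there were named after their values were seen. Dido1 (0.44 ± 0.07), Ythdf1 (0.27 ± 0.06) and Fam217b (0.77 ± 0.28) were higher, and the call of Fam217b was lost when any library other than KO 04 was left out (edgeR adjusted p up to 0.173), with no low-count filter and with DESeq2 (0.145). Rps21, the ribosomal protein gene beside Cables2, was lower (-1.22 ± 0.05), as were Tcfl5 (-0.45 ± 0.07) and Arfrp1 (-0.63 ± 0.19), whose call was lost without WT 03 or KO 06 (adjusted p up to 0.164) and with DESeq2 (0.0640). DESeq2 called 5 of the 42 genes tested there, against 7 with edgeR. Whether position bears on the level of Eef1a2 was not tested.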

How the data were processed

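Total RNA (500 ng per library) was depleted of ribosomal RNA, made into directional libraries and read in pairs of 36 bases, per the labels' protocols. The deposited table holds whole-number counts of reads per gene and library, not normalized, as its values and file headers show. The submitters' processing notes name the build mm10 and edgeR. The sources used here do not give the aligner, the counting program or its strand setting. In total, 18 other columns of single-library values were not used. Gene coordinates, per the file headers, were counted from 1 here and equal those of GENCODE M21 for the members.

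The 7 members, the gene lists and the naming rule were chosen with earlier results of these data known. Genes were filtered with filterByExpr, scaled with TMM and fitted with edgeR 4.0.16 in R 4.3.3 (robust quasi-likelihood, group as the only term). Benjamini-Hochberg adjustment ran over the 11594 genes tested, and calls were made at 0.05. The common biological coefficient of variation was 5.03%. CPM were computed with TMM-scaled library sizes. Members carry no p-value. Alternatives were DESeq2 1.42.0, upper-quartile factors, library size alone, no low-count filter, CPM of at least 1 in 3 libraries, and each library left out.

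The rule named the members and Cables2, and from each list up to 3 called genes in each direction with the largest change and a mean of at least 1 CPM. It also named Eef1a1, Rest, Scg5, Neurod4, Neurog2, Tubb3, Vim, Sox2 and Pax6 whatever their values, and the 2 genes most alike to each member. Chga, Prph and the markers at or under 1 CPM were named after their values were seen. Some genes that would be named are not reported here. Promoters are RefSeq windows of GRCm38.p6, and transcripts are GENCODE M21.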

Additional observations from a re-analysis of the deposited data

How the results depend on the processing

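Of 701 values recomputed for 64 results, 2 changed sign, both without WT 01 and both of genes not called: Pax6 to 0.084 and Eef1a1 to -0.0097, against -0.55 and 0.01. Another 611 kept their direction and their side of the threshold or moved within the allowed range. Of the rest, 77 were calls lost and 11 were counts of called genes that moved beyond the allowed range. The median log2 fold change of the members lay between 1.57 and 1.89 over the alternatives. DESeq2 called 569 genes higher and 693 lower, against 943 and 1059 with edgeR. Of the neural-type genes and their regulators it called 5 lower, against 10. With the 4 neural gene lists alone, an alternative chosen after seeing the data, 6 were called higher and 4 lower, against 10 and 10. DESeq2 called 3 family relatives higher, against 6. It gave no adjusted p for Meis2, Synm, Chst15 and Acta2, which therefore count neither as kept nor as lost. Family relatives called lower were 5 with no low-count filter and 5 with CPM of at least 1 in 3 libraries, against 3. The cause was not tested. With 1 library left out at a time, genes called ran from 719 to 823 higher and from 820 to 923 lower. Neural-type genes and regulators called higher then ran from 6 (without WT 02) to 11, and lower from 3 (without WT 01, and 6 without KO 06) to 9. Family relatives ran from 4 to 6 higher and from 3 to 4 lower, and genes near Cables2 from 3 to 5 higher and from 2 to 3 lower. No paired analysis was possible because the count columns carry library numbers and not the replicate numbers of the labels. Totals of 4234788 to 5206717 counts leave genes with few counts, such as Neurod1 and Eef1a2 in WT, with wide errors, and most proneural factors untested.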
